A study of Canis lupus familiaris with 8 samples.

Results

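The Rab GTPases of membrane traffic described here are 10 genes, RAB1A, RAB2A, RAB5A, RAB5C, RAB7A, RAB8A, RAB9A, RAB10, RAB11A and RAB13. They were found as every non-control probe whose listed accession belongs to one of them, without regard to signal. The array carried 17 such probes among 43603 probes, and all 10 genes had at least 1. RAB1A had 3 probes, RAB5A, RAB7A, RAB9A, RAB10 and RAB11A had 2 each, and the other 4 genes had 1. All 17 probes were well above background on all 8 arrays, so no member was lost to a filter on dim probes. Where a gene had several probes they are numbered from the brightest, and probe 1 stands for the gene.

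The arrays compared a canine mammary adenocarcinoma line, CMT-Stylo, with CMT-Star, a subline made from it over several months in rising doxorubicin and resistant at 100 nM. Each line was measured as the whole culture, called the parent here, and as CD44+, CD24-/low, ALDH+ cells sorted from it and called cancer stem cells (CSC). Stylo parent and Stylo CSC are labelled as not treated, Star parent and Star CSC as doxorubicin treated, and all 4 groups were kept in the same serum-containing medium. Each group had 2 arrays hybridised with Cy3-labelled cRNA. Both lines go back to 1 cell line. Nothing in the labels ties the 2 replicates of a group to different cultures, and the p-values then cover array-to-array spread that may be technical only.

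Rab proteins are small GTPases that switch between a GTP-bound form on a membrane and a GDP-bound form that an escort protein can carry through the cytosol. Each is placed on particular membranes, where its active form recruits the motors, tethers and fusion factors that move and dock vesicles. RAB1A and RAB2A work between the endoplasmic reticulum and the Golgi, RAB5A and RAB5C on early endosomes, and RAB7A on late endosomes and lysosomes. RAB9A works on late endosomes, in the return of mannose 6-phosphate receptors to the trans-Golgi network, and RAB11A on recycling endosomes. RAB8A, RAB10 and RAB13 serve traffic to the cell surface, which in epithelial cells includes the basolateral membrane and the cell junctions.

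Values below are scaled signals, each probe's processed signal divided by the 75th percentile of its own array. That percentile was 69.2 and 88.3 on the 2 Stylo parent arrays and between 296 and 536 on the other 6. In Stylo parent 46.7% and 47.4% of probes were well above background, against 55.5% to 60.7% elsewhere, and no spot was saturated. Log2 signals of replicates correlated at 0.982 to 0.995, and Stylo parent arrays with the others at 0.81 to 0.89. The 2 slides split the arrays by line, Stylo on 1 and Star on the other, and the doxorubicin labels split them the same way. Any comparison of Star with Stylo is thus also one of slides and of treated with untreated cells. Line, slide and treatment cannot be told apart. Of 7 mammary epithelial markers with a probe, KRT14, PGR and ERBB2 were well above background on both arrays of every group, and CDH1 in every group but Stylo parent. The 7 epithelial markers summed to 9.97 to 11.5 in Stylo parent, 4.57 to 4.73 in Stylo CSC, 4.98 to 5.39 in Star parent and 3.54 to 3.66 in Star CSC. This sum was highest in Stylo parent, but PGR and KRT14 made up most of it. CDH1 went the other way, at 0.031 and 0.028 in Stylo parent and 0.617 and 0.703 in Stylo CSC. Of 6 epithelial markers tested against Stylo parent, 1 was called higher and 2 lower in Star parent. In Stylo CSC 1 was called higher and 3 lower. All 5 fibroblast markers cleared the background everywhere, and their sum was 77.5 to 84.3 in Stylo parent, 608 to 649 in Stylo CSC, 126 to 198 in Star parent and 114 to 125 in Star CSC. COL1A2 made up most of it. In Star parent against Stylo parent 1 of the 5 was called higher and 3 lower, with COL1A1, DCN and PDGFRB at -3.01, -5.47 and -2.36. In Stylo CSC against Stylo parent 4 were called higher and 1 lower. COL1A1, COL1A2, DCN and THY1 were at 2.42, 3.03, 1.64 and 2.73 there, and PDGFRB at -1.09. Of the sort markers, CD44 stood at 1.75 and 2.21 in Stylo parent and 4.03 and 3.78 in Stylo CSC, but at 3.99 and 4.3 in Star parent and 2.21 and 2.28 in Star CSC. Its difference between sorted and unsorted cells was 0.99 ± 0.14 in Stylo (adjusted p = 0.000897) and -0.88 ± 0.14 in Star (adjusted p = 0.00765), both under 2-fold. With this scaling the CD44 transcript in Star thus went against the CD44+ label. Spike-in scaling shifts all probes of an array alike. It moved the median of all tested probes in Star CSC against Star parent from -0.10 to 1.56. That shift was larger than the CD44 difference and of opposite sign, so the CD44 sign in Star depends on the scaling. The CD44 values under other scalings are not given here. ALDH1A1 was well above background on the 2 Star CSC arrays only. Of 5 leukocyte markers with a probe, neither Stylo group had any that cleared the background on both arrays, and Star CSC had 3. The part of these markers in the Rab values was not tested.

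With the percentile scaling, every probe of RAB1A, RAB2A, RAB5A, RAB8A, RAB9A, RAB10 and RAB11A had its highest group mean in Stylo parent. RAB5C and RAB7A were highest in Star parent, and RAB13 in Stylo CSC. Against Stylo parent, RAB9A, RAB5A, RAB10 and RAB11A fell in Star parent, and RAB9A, RAB1A, RAB10 and RAB5A fell in Stylo CSC. RAB13 and RAB7A were the members whose log2 differences lay above 0 in both of these comparisons on every probe. No Rab probe was called in Star CSC against Star parent. A call needed an adjusted p under 0.05 over all 26823 tested probes in limma's moderated test and a change of at least 2-fold. The signs of these falls held under both percentile scalings, quantile normalization, median scaling and loess. Spike-in scaling turned all those in Stylo CSC and that of RAB11A probe 1 in Star parent. Normexp turned RAB11A probe 1 in Star parent and RAB10 probe 1 in Stylo CSC. Calls held less often than signs over the 7 ways of processing the arrays. For probe 1 in Star parent, RAB9A was called under 7, RAB5A under 5, and RAB10 and RAB11A under 1 each. For probe 1 in Stylo CSC, RAB9A and RAB1A were called under 5 each, RAB5A under 2 and RAB10 under 1.

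In Star parent against Stylo parent, 9 of the 17 Rab probes were called lower and 0 higher, where 31.9% of all tested probes were called lower and 24.6% higher, or 56.5% in either direction. An adjusted p under 0.05 at any fold was found for 15 of the 17, against 75.9% of all. The groups did not overlap for 16 of the 17, where this held for 87.3% of all tested probes. The median log2 difference was -1.01 over the Rab probes and -0.20 over all tested probes. By gene, 4 of 10 were lower, beside 383 lower and 201 higher of 978 named genes, with medians of -0.84 and -0.50. In Stylo CSC against Stylo parent 8 Rab probes were called lower and 0 higher, where 32.1% of tested probes were called lower and 21.9% higher, or 54% in either direction. An adjusted p under 0.05 was found for 14, against 75% of all. The groups did not overlap for 16 of 17 probes there, against 88.9% of all, and the medians were -0.99 for the Rab probes and -0.28 for all. Counted by gene, 4 of 10 were lower there, beside 371 lower and 189 higher of 978 named genes, with medians of -0.81 and -0.59. These comparisons share the Stylo parent arrays, so their values for a gene are not independent of each other. Of the 17 Rab probes, 9 lay in the brightest of 4 equal bins of tested probes by mean level, 6 in the next and 2 in the one after. In that brightest bin the median over all probes was -0.51 in Star parent against Stylo parent and -0.35 in Stylo CSC against Stylo parent, and 39.9% and 34.9% were called lower. The part of brightness in the Rab differences was not tested.

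**Figure D1:**
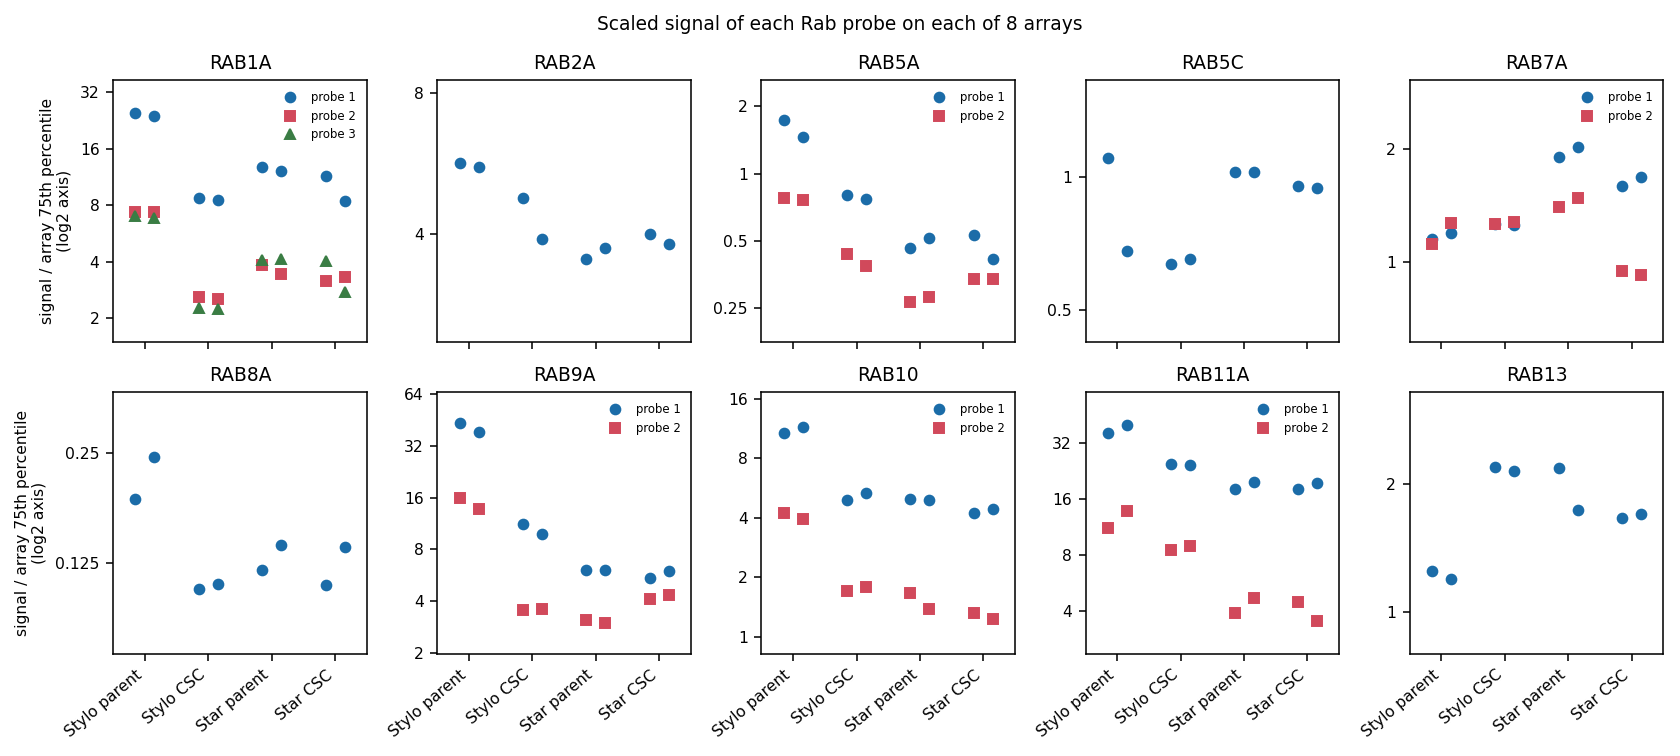
Scaled signal (signal divided by the array's 75th percentile, log2 axis) of every Rab probe, with 1 point per array and 2 arrays per group. RAB9A probe 1 stood at 43.5 and 38.2 in Stylo parent and between 5.49 and 11.2 on the other 6 arrays, while RAB13 was lowest in Stylo parent, at 1.25 and 1.20.

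RAB9A, the late endosome GTPase of receptor return to the Golgi, had the widest range over the groups of any member. Probe 1 gave scaled signals of 43.5 and 38.2 in Stylo parent, 11.2 and 9.81 in Stylo CSC, 6.07 and 6.04 in Star parent, and 5.49 and 5.96 in Star CSC. Both Stylo parent arrays stood far above all others, and Stylo CSC lay between them and the 2 Star groups. Against Stylo parent the log2 change was -2.75 ± 0.12 (SE, 2 arrays a group) in Star parent, a 6.73-fold difference with an adjusted p of 8.2e-06. In Stylo CSC it was -1.96 ± 0.12, or 3.89-fold, with an adjusted p of 3.2e-05. Probe 2 was also highest in Stylo parent, at 15.9 and 13.7, but it put the other groups closer together: 3.54 and 3.60 in Stylo CSC, 3.11 and 2.98 in Star parent, and 4.10 and 4.34 in Star CSC. Its changes were -2.28 ± 0.11 and -2.05 ± 0.11, both called. The fall in Star parent was called for probe 1 under all 7 ways of processing the arrays and for probe 2 under 6, but with normexp it shrank to -1.15 and -0.79, which is -0.33 and 0.038 relative to the median of all probes. The fall in Stylo CSC was called under 5 for each probe, and the value under spike-in scaling was 0.13 for probe 1 and 0.048 for probe 2, where the median of all probes was 1.82. Before scaling, the signals of probe 1 were 3840 and 2642 in Stylo parent and between 1999 and 3455 on the other arrays. Stylo parent thus overlapped Stylo CSC and Star CSC before scaling and lay above Star parent. Those of probe 2 were 1401 and 950 in Stylo parent, 1096 and 1068 in Stylo CSC, 1155 and 986 in Star parent, and 2199 and 2014 in Star CSC. On every probe of the other members, both Stylo parent arrays had lower signals before scaling than all other arrays. RAB10 probe 1, for example, gave 942 and 794 in Stylo parent and between 1527 and 2267 elsewhere. The falls of those members were thus seen only after scaling. In these samples of many cells, fewer cells that express a gene and less RNA per cell cannot be told apart.

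RAB5A and RAB5C drive the fusion of early endosomes and differed from each other in pattern. RAB5A probe 1 stood at 1.75 and 1.46 in Stylo parent, 0.803 and 0.767 in Stylo CSC, 0.465 and 0.517 in Star parent, and 0.529 and 0.417 in Star CSC. Stylo parent was above every other array, Stylo CSC was above both Star groups, and the 2 Star groups overlapped. It fell by 1.70 on the log2 scale in Star parent (SE 0.16, adjusted p = 0.000139), and probe 2 fell by 1.49 (SE 0.10, adjusted p = 3.9e-05). In Stylo CSC the change was -1.02 ± 0.16 for probe 1, just past 2-fold, and -0.90 ± 0.10 for probe 2, short of it. The call of probe 1 in Stylo CSC was lost without Stylo parent replicate 1 (-0.89) or without Stylo CSC replicate 2 (-0.99), and it was made under 2 of the 7 scalings, with the sign of both probes turned under spike-in scaling (1.07 and 1.19). RAB5C stood at 1.1 and 0.682 in Stylo parent, 0.637 and 0.652 in Stylo CSC, 1.03 and 1.03 in Star parent, and 0.955 and 0.947 in Star CSC. The 2 Stylo parent arrays enclosed both Star groups, so those groups overlapped. The log2 difference of RAB5C in Star parent against Stylo parent was 0.24 with a 95% interval of -0.29 to 0.78 (adjusted p = 0.342), and in Stylo CSC against Stylo parent -0.43 with an interval of -0.97 to 0.11 (adjusted p = 0.121).

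RAB7A, which acts in the maturation of late endosomes and their fusion with lysosomes, showed small differences. Probe 1 gave 1.16 and 1.20 in Stylo parent, 1.27 and 1.25 in Stylo CSC, 1.91 and 2.03 in Star parent, and 1.59 and 1.68 in Star CSC. The 2 Stylo groups were close together, and all 4 Star arrays lay above them. The log2 difference in Star parent against Stylo parent was 0.74 ± 0.09 (adjusted p = 0.000502), below the 2-fold limit, although 3 of the 7 scalings put it past that limit. Probe 2 gave 1.12 and 1.27 in Stylo parent, 1.27 and 1.28 in Stylo CSC, 1.40 and 1.48 in Star parent, and 0.949 and 0.924 in Star CSC. On this probe Star CSC was the lowest group, below all Stylo arrays. The probes of RAB7A therefore gave opposite signs in Star CSC against Stylo CSC, with 0.38 ± 0.09 for probe 1 (adjusted p = 0.0151) and -0.44 ± 0.10 for probe 2 (adjusted p = 0.0129), both under 2-fold. For Stylo CSC against Stylo parent the interval was -0.13 to 0.33 for probe 1 and -0.16 to 0.35 for probe 2.

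RAB11A, the GTPase of the recycling endosome, fell in Star parent. Probe 1 gave 36.4 and 39.9 in Stylo parent, 24.7 and 24.4 in Stylo CSC, 18.1 and 19.7 in Star parent, and 18.1 and 19.4 in Star CSC. Its groups ran in that order, and the 2 Star groups overlapped. The change in Star parent against Stylo parent was -1.01 ± 0.10 (adjusted p = 0.000205), which only just reached 2-fold. That call was made under 1 of the 7 scalings, was lost without Stylo parent replicate 2 (-0.94) or Star parent replicate 1 (-0.95), and its sign turned under spike-in scaling (0.03) and normexp (0.49). Probe 2 gave 11.1 and 13.8 in Stylo parent, 8.51 and 8.95 in Stylo CSC, 3.90 and 4.72 in Star parent, and 4.46 and 3.54 in Star CSC. Its change was larger, -1.53 ± 0.18 (adjusted p = 0.000372), and was called under 5 scalings. Neither probe was called in Stylo CSC against Stylo parent, with -0.63 ± 0.10 and -0.51 ± 0.18, and both signs turned under spike-in scaling and normexp.

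RAB10 and RAB8A, close relatives in traffic from the Golgi and endosomes to the plasma membrane, both stood highest in Stylo parent. RAB10 probe 1 gave 10.7 and 11.5 there, 4.93 and 5.32 in Stylo CSC, 4.96 and 4.92 in Star parent, and 4.23 and 4.41 in Star CSC. Both Stylo parent arrays were clear of the rest, and Stylo CSC overlapped Star parent. RAB10 fell by 1.16 (SE 0.10) on probe 1 and by 1.43 (SE 0.12) on probe 2 in Star parent, with adjusted p of 8.3e-05 and 9.5e-05. In Stylo CSC it fell by 1.11 (SE 0.10) and by 1.22 (SE 0.12), with adjusted p of 0.00012 and 0.000211. Probe 2 was called under 5 scalings in Star parent and 4 in Stylo CSC, and probe 1 under 1 in each. The sign in Stylo CSC turned under spike-in scaling for both probes (0.98 and 0.87) and under normexp for probe 1 (0.02). RAB8A was the dimmest member, with 0.188 and 0.245 in Stylo parent, 0.106 and 0.11 in Stylo CSC, 0.120 and 0.141 in Star parent, and 0.109 and 0.139 in Star CSC. Its Stylo parent arrays lay above the other 6, which stood close together. The log2 difference was -0.72 ± 0.19 in Star parent (adjusted p = 0.0128) and -0.99 ± 0.19 in Stylo CSC (adjusted p = 0.00357), both short of 2-fold. Without Stylo parent replicate 1 or Stylo CSC replicate 2 the second passed the limit, at -1.18 and -1.01, and under spike-in scaling both signs turned (0.32 and 1.11). With normexp both were called, at -1.60 in Star parent and -1.65 in Stylo CSC.

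RAB13, known for the traffic of tight junction proteins in epithelial cells, ran the other way. It gave 1.25 and 1.20 in Stylo parent, 2.2 and 2.15 in Stylo CSC, 2.19 and 1.74 in Star parent, and 1.66 and 1.71 in Star CSC. Stylo parent was the lowest group and overlapped none of the others. The log2 difference from Stylo parent was 0.67 ± 0.13 in Star parent (adjusted p = 0.00377) and 0.83 ± 0.13 in Stylo CSC (adjusted p = 0.00157). Neither reached 2-fold in the percentile scaling, and 2 and 4 of the 7 scalings put them past it. The sign held under all 7 scalings.

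RAB1A, needed for vesicles leaving the endoplasmic reticulum to reach the Golgi, had the largest fall in Stylo CSC after RAB9A. Probe 1 gave 24.8 and 23.9 in Stylo parent, 8.72 and 8.55 in Stylo CSC, 12.8 and 12.2 in Star parent, and 11.5 and 8.38 in Star CSC. Stylo parent was highest and Star parent second, and the 2 arrays of Star CSC enclosed Stylo CSC. All 3 probes fell in Stylo CSC, by 1.49 (SE 0.16), 1.52 (SE 0.10) and 1.62 (SE 0.18) on the log2 scale, with adjusted p of 0.000293, 4.2e-05 and 0.000356. Each was called under 5 scalings, and the sign turned under spike-in scaling (0.60, 0.57 and 0.48). In Star parent against Stylo parent the 3 probes gave -0.96 ± 0.16, -1.02 ± 0.10 and -0.76 ± 0.18, and probe 2 alone was called. That call was lost without Star parent replicate 2 (-0.94), and all 3 signs turned under spike-in scaling and normexp. RAB2A, which works on the same route, gave 5.68 and 5.57 in Stylo parent, 4.78 and 3.91 in Stylo CSC, 3.54 and 3.74 in Star parent, and 4.0 and 3.82 in Star CSC. Stylo parent was above all other arrays. The log2 difference of RAB2A was -0.63 ± 0.12 in Star parent (adjusted p = 0.00393) and -0.38 ± 0.12 in Stylo CSC (adjusted p = 0.03), both under 2-fold. The sign of both turned under spike-in scaling and normexp, and that in Stylo CSC also under median scaling (0.053).

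**Figure D2:**
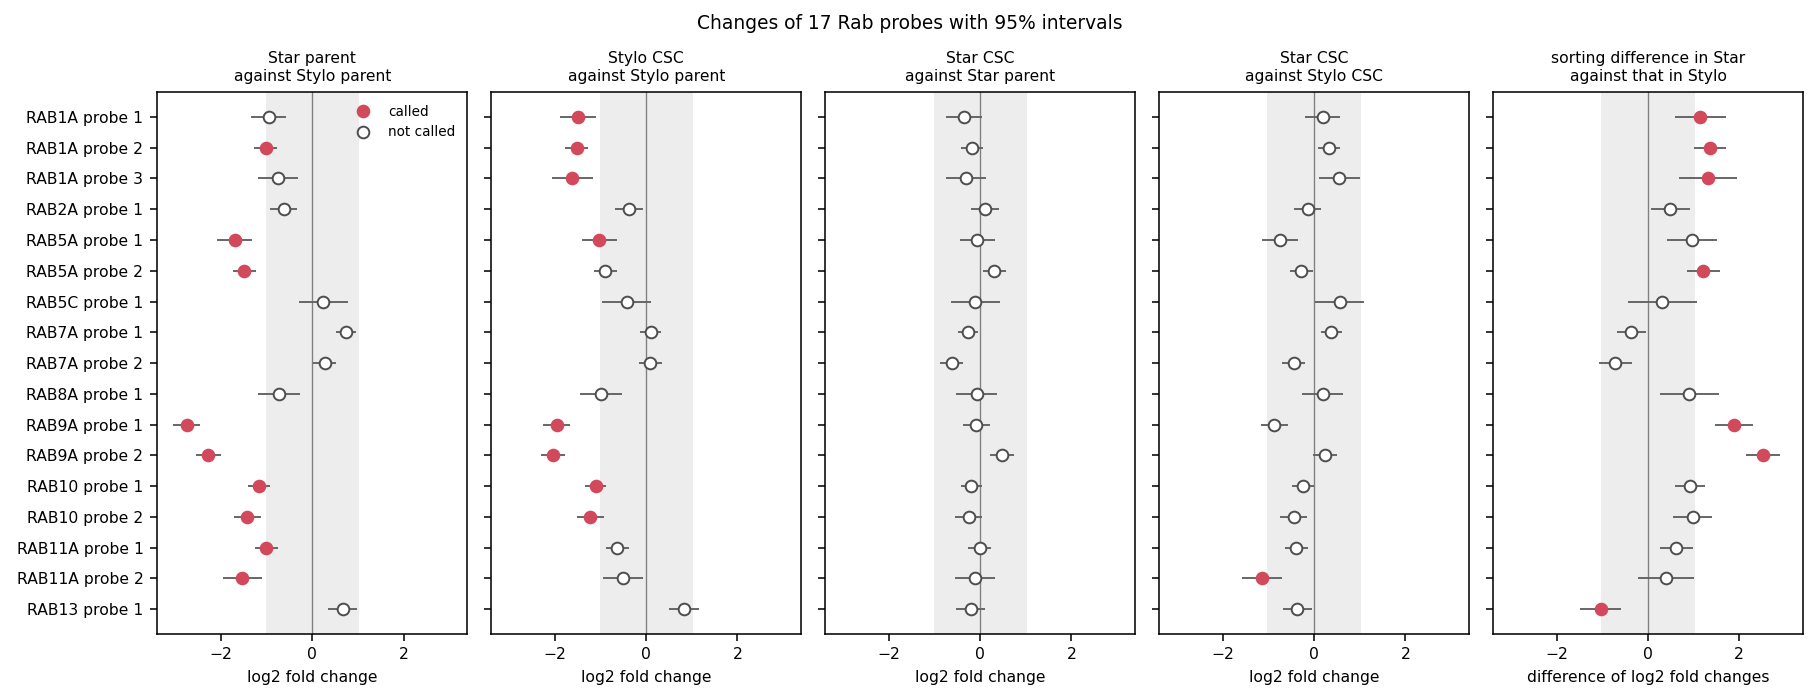
Log2 fold change of the 17 Rab probes in each comparison with the 95% interval from limma, filled where called, with the zone under 2-fold shaded; signs that depend on the scaling are those named in the text. For Star CSC against Star parent, every point and interval lies inside the shaded zone.

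Star CSC against Star parent asked what sorting changed within the resistant subline, on a single slide. None of the 17 Rab probes was called, where 9.72% of all tested probes were called in either direction, 3.22% higher and 6.51% lower. At an unadjusted p under 0.05 there were 4, and after adjustment 2, where 29.5% of all tested probes passed. Every 95% interval lay between -0.88 and 0.74, that is, under 2-fold. With spike-in scaling, where the median of all probes was 1.56, all 10 genes were called higher. The median was -0.11 for the Rab probes and -0.10 for all tested probes. The groups did not overlap for 13 of the 17 probes, against 71.8% of all tested probes. The 2 with an adjusted p under 0.05 were RAB7A probe 2, at -0.62 ± 0.10 (adjusted p = 0.00938), and RAB9A probe 2, at 0.47 ± 0.11 (adjusted p = 0.0243). Probe 1 of RAB7A gave -0.27 ± 0.09 and probe 1 of RAB9A -0.08 ± 0.12, each with an adjusted p above 0.05.

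Star CSC against Stylo CSC set the sorted cells of the 2 lines side by side. Of the Rab probes 0 were called higher and 1 lower, where 12.6% and 16.9% of tested probes were called in those directions and 29.4% in either. An adjusted p under 0.05 was found for 9 probes, against 57% of all. The groups did not overlap for 14 of 17, against 86% of all tested probes. The called probe was RAB11A probe 2, at -1.14 ± 0.18 (adjusted p = 0.00281), called under 3 of the 7 scalings and lost without Star CSC replicate 2 (-0.97). RAB11A probe 1 gave -0.39 ± 0.10, with its sign turned under spike-in scaling (0.22). The probes of RAB9A disagreed here, with -0.87 ± 0.12 for probe 1 (adjusted p = 0.00169) and 0.24 ± 0.11 for probe 2 (adjusted p = 0.103). RAB5A gave -0.74 ± 0.16 on probe 1 (adjusted p = 0.00932) and -0.28 ± 0.10 on probe 2 (adjusted p = 0.0581). RAB1A gave 0.33 ± 0.10 on probe 2 and 0.56 ± 0.18 on probe 3 (adjusted p = 0.0326 and 0.0411), both under 2-fold. Its probe 1 gave 0.19 with an interval of -0.21 to 0.58 (adjusted p = 0.358), and the groups overlapped there.

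The difference between sorting in Star and sorting in Stylo was tested as an interaction, with each difference taken on its own slide. Called probes numbered 6 higher and 1 lower of 17, where 28.2% of all tested probes were called higher and 24% lower, or 52.1% in either direction. An adjusted p under 0.05 was found for 15, against 65.2% of all. Counted by gene, 2 of 10 were higher and 1 lower, beside 325 and 204 of 978 named genes, with medians of 0.76 and 0.41. A higher value means that the log2 difference between CSC and parent was more positive in Star than in Stylo. RAB9A gave 1.88 ± 0.17 on probe 1 (adjusted p = 0.000229) and 2.52 ± 0.15 on probe 2 (adjusted p = 7.2e-05), called under 5 and 7 scalings. RAB1A gave 1.14 ± 0.23, 1.35 ± 0.14 and 1.31 ± 0.26, of which probes 2 and 3 were called under 5 scalings and probe 1 under 1. The sign of RAB1A probe 1 turned under normexp (-0.20), and its call was lost without Star CSC replicate 1 (0.91). RAB5A probe 2 gave 1.21 ± 0.15 and was called, and probe 1 gave 0.96 ± 0.22 and was not. RAB13 gave -1.04 ± 0.18 (adjusted p = 0.0035), called under 6 scalings and lost without Star parent replicate 1 (-0.87). Without Star parent replicate 2 the count of Rab genes called in the interaction was 5 in place of 3.

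Ratios between probes of the same array do not depend on any scaling factor of the array, although they can still move with background and with the shape of the signal range. The pairs were picked after their values had been seen and are given without a test. Set to 0 at the Stylo parent mean, the log2 ratio of RAB9A probe 1 over RAB7A probe 1 was 0.12 and -0.12 in Stylo parent, -1.98 and -2.15 in Stylo CSC, -3.45 and -3.54 in Star parent, and -3.33 and -3.29 in Star CSC. With probe 2 of both genes it was -2.15 and -2.13 in Stylo CSC, -2.48 and -2.62 in Star parent, and -1.51 and -1.40 in Star CSC. Every array outside Stylo parent was below it on all probe pairs, and the size in Star CSC depended on the probes. The ratio of RAB13 over RAB10 probe 1 was 2.01 and 1.87 in Stylo CSC, 1.99 and 1.67 in Star parent, and 1.83 and 1.81 in Star CSC. Star parent overlapped both other groups, and all 3 stood well apart from Stylo parent, at 0.083 and -0.083. RAB5A probe 1 over RAB7A probe 1 gave -1.1 and -1.15 in Stylo CSC, -2.48 and -2.41 in Star parent, and -2.03 and -2.45 in Star CSC. Probe 2 of both genes gave -0.90 and -1.09 in Stylo CSC, -1.77 and -1.77 in Star parent, and -0.85 and -0.81 in Star CSC. The order of Stylo CSC and Star CSC thus depended on the probes.

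**Figure D3:**
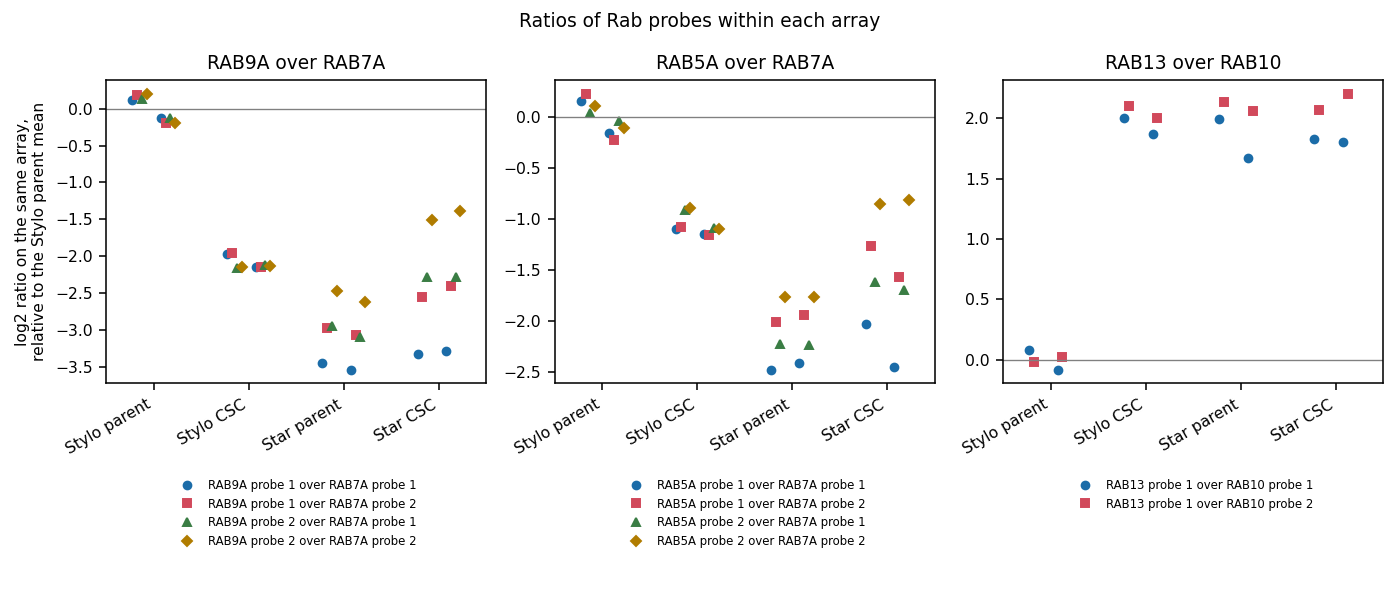
Log2 ratio of probe signals on the same array, relative to the Stylo parent mean, with 1 point per array and probe pair. RAB9A over RAB7A lies between -1.40 and -3.54 on the 6 arrays outside Stylo parent, and RAB13 over RAB10 between 1.67 and 2.2.

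The processing of the arrays moved the median of all tested probes, so changes were also read relative to it. Quantile normalization, loess and normexp moved probes unequally as well. In Star parent against Stylo parent that median was -0.20 with the percentile scaling, 0.14 with quantile normalization, 0.06 with cyclic loess, 0.85 with spike-in scaling and -0.83 with normexp. The Rab median lay below it by 0.81 with the percentile scaling, by 0.77 with quantile normalization and by 0.67 with loess, and 13 of 17 probes were below the median of all. With normexp, a background correction of the median signal with an offset of 50, the Rab median lay 0.79 above that of all probes and 13 of 17 probes were above. In Stylo CSC against Stylo parent the Rab median was 0.71, 0.93 and 0.96 below that of all probes in the same 3 scalings, and 0.56 above with normexp. For the interaction it lay 0.77 above that of all probes with 14 of 17 probes above, and with normexp 0.48 below with 3 of 17 above. That offset is of the size of the Stylo parent percentiles, 69.2 and 88.3. The part of the dim Stylo parent arrays in these differences was not tested.

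**Figure D4:**
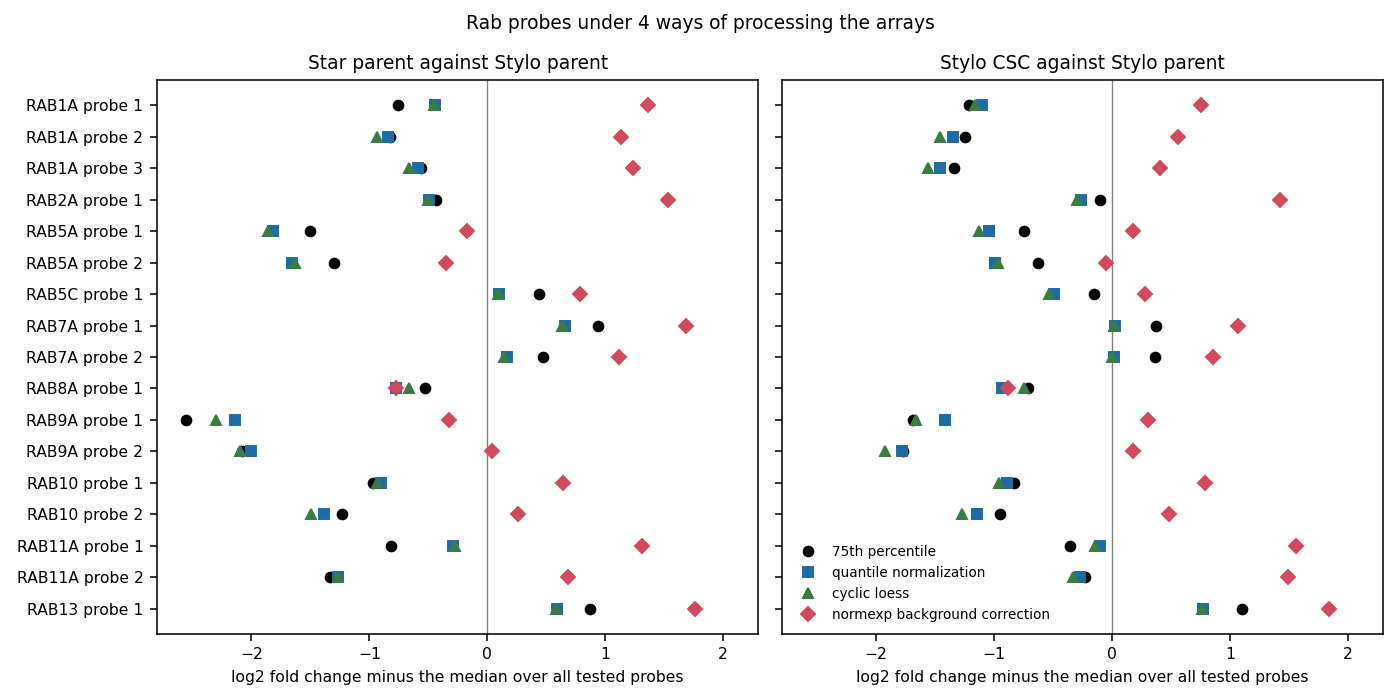
Log2 fold change of each Rab probe minus the median over all tested probes, under 4 ways of processing the arrays, for Star parent and Stylo CSC against Stylo parent. The percentile, quantile and loess points lie close together, with a RAB9A probe lowest, while the normexp points lie to the right for all probes but RAB8A.

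Over 968 genes compared by their 4 group means, the pattern nearest to the median profile of the Rab genes was that of IL6ST, the shared receptor subunit of the interleukin 6 family. Its root mean square distance was 0.04 on the log2 scale. ARHGAP35 and RHOA, another small GTPase, came next at 0.05 each, and the order of these genes was not tested. Nearest to RAB9A were RPLP0, a ribosomal stalk protein (0.06), NME2, a nucleoside diphosphate kinase (0.10), and the G protein subunit GNB3 (0.11).

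Of the other Rab family genes named on the array, 3 of 4 were tested. RAB25, a relative of RAB11A found in epithelia, was not well above background on any array. RAB22A, an endosomal relative of RAB5A, stood at 0.425 and 0.392 in Stylo parent and 0.222 and 0.148 in Star parent, a change of -1.17 ± 0.19 (adjusted p = 0.00187). That call was lost without Star parent replicate 2 (-0.88). RAB27A, which serves the release of secretory granules and exosomes, was the Rab gene that rose in Star CSC against Star parent. Its scaled signal was 11.0 and 9.68 in Stylo parent, 10.9 and 11.6 in Stylo CSC, 9.44 and 7.83 in Star parent, and 22.3 and 22.9 in Star CSC. Both Star CSC arrays were above all others, and the change was 1.39 ± 0.13 (adjusted p = 0.00185). Of 3 leukocyte markers tested, 2 were also called higher in this comparison, CD86 and TYROBP. Over all tested probes 3.22% were called higher there. The leukocyte markers summed to 0.132 to 0.165 in Star parent and 1.05 to 1.1 in Star CSC. CD86 made up most of the Star CSC sum, at 0.960 and 0.995, while TYROBP stood at 0.030 and 0.028. CD79A was not called (-0.16 ± 0.34, adjusted p = 0.748). The part of leukocyte markers in the RAB27A value was not tested.

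Of 41 regulators and effectors of Rab proteins looked for, 3 were tested. GDI2, a GDP dissociation inhibitor that takes Rab proteins off membranes, stood at 3.73 and 2.93 in Stylo parent and 8.14 and 8.10 in Stylo CSC, a rise of 1.30 ± 0.13 (adjusted p = 0.000254). RABAC1, the prenylated Rab acceptor, stood at 65.2 and 70.6 in Stylo parent and 32.9 and 32.4 in Star parent, a change of -1.06 ± 0.09 (adjusted p = 0.000117). Its call was lost without Stylo parent replicate 2 (-0.998), and its sign turned under quantile normalization (0.09) and normexp (0.52).

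Among coats, adaptors and cargo receptors, 9 of 53 genes looked for were tested, and 2 rose and 2 fell in Star parent against Stylo parent, beside 201 and 383 of the 978 named genes. IGF2R, the large mannose 6-phosphate receptor, is cargo of the route that RAB9A serves. It stood at 2.32 and 2.61 in Stylo parent, 19.9 and 18.7 in Stylo CSC, 39.6 and 38.0 in Star parent, and 20.4 and 21.1 in Star CSC. Stylo parent was lowest, where RAB9A was highest, and Star parent highest. IGF2R rose by 3.98 ± 0.10 in Star parent (adjusted p = 4.4e-06) and by 2.97 ± 0.10 in Stylo CSC (adjusted p = 1.2e-05). VPS29, a subunit of the retromer that returns receptors from endosomes to the Golgi, stood at 41.3 and 39.1 in Stylo parent, 5.38 and 5.87 in Stylo CSC, 5.30 and 6.22 in Star parent, and 9.33 and 8.98 in Star CSC. Its Stylo parent arrays were far above the rest, and it changed by -2.81 ± 0.12 and -2.84 ± 0.12. Within Star, 1 gene of this list was called in CSC against parent, beside 54 called higher and 72 lower of 978 named genes. It was PIGR, the receptor that carries immunoglobulins across epithelia. PIGR stood at 0.686 and 0.708 in Star parent and 0.105 and 0.110 in Star CSC, a change of -2.70 ± 0.12 (adjusted p = 0.000315).

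Of 29 other small GTPases looked for, 6 were tested, and 1 rose and 3 fell in Star parent against Stylo parent, beside the same 201 and 383 of 978 named genes. NRAS, a signalling GTPase of the Ras family, stood at 5.75 and 5.70 in Stylo parent, 0.929 and 0.954 in Stylo CSC, 0.747 and 0.624 in Star parent, and 0.614 and 0.627 in Star CSC. Stylo parent stood clear of the other 3 groups, and NRAS fell by 3.07 (SE 0.11) in Star parent and by 2.60 (SE 0.11) in Stylo CSC. Of 42 SNAREs and fusion factors 1 was tested, STXBP2, a partner of syntaxins in exocytosis. It stood at 1.21 and 0.850 in Stylo parent, 2.33 and 2.49 in Stylo CSC, and 2.10 and 2.43 in Star parent. The Stylo parent arrays were below the others, and the change was 1.15 ± 0.19 in Star parent and 1.25 ± 0.19 in Stylo CSC, both calls lost without Stylo parent replicate 2 (0.90 and 0.99).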

How the data were processed

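RNA of 8 samples, 2 in each of 4 groups taken from the sample titles, was measured on 1-colour canine Agilent arrays; the file headers name Agilent Feature Extraction, version 11.5.1.1, as the software that read them. The deposited scanner files hold the authors' processed signal of each spot as an intensity, with flags for background, saturation and outliers. The authors' deposited series matrix holds log2 values that differed from the values computed here by a constant for each array and a constant for each probe, and it served as an alternative. Its column medians ran from -0.27 to 1.01, and its centring was read from this match, as no source used here states it.

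Control spots and outlier spots were left out, log2 processed signals were averaged per probe, and the 75th percentile of each array was subtracted. The 26823 probes tested were those that stood well above background on both arrays in 1 group or more. limma 3.58.1 in R 4.3.3 fitted 4 group means on all 8 arrays with 1 spread per probe (lmFit, eBayes), and 5 contrasts were drawn. Adjusted p-values are two-sided, by Benjamini-Hochberg over all tested probes, and a call also needed a 2-fold change. The fit was tested on simulated data. Replicate numbers did not pair the samples (correlations of deviations from -0.07 to 0.07).

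Alternatives were quantile, median, detected-probe percentile, cyclic loess and spike-in scaling, normexp, other filters on dim probes, other thresholds, the replicate block, each array left out and the other probes of a gene. The scanner files have no mean signal, so normexp used the median signal and the background median, with an offset of 50. The spike-in factor rests on 7 probes.

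Gene names came from a RefSeq gene table of another dog assembly, matched on accession and used for names only, and named 2353 probes (5.40%). Paralogs such as RAB1B or RAB11B may share sequence with a probe, which was not checked, since no probe sequence was used here. Genes of each list other than those with a named probe were not analysed here. The Rab members, gene lists and tests were chosen with earlier results of these data known. Named genes were all members, and, for each list of traffic genes, the called gene with the largest rise and the largest fall in the first 3 comparisons. Some genes picked by these rules are not reported here. Like patterns were ranked by the distance of centred group means. Of the other marker lists, the 2 endothelial markers with a probe summed to 0.560 to 2.72 over the arrays and red cell genes had none. The number of arrays limits the precision.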

Additional observations from a re-analysis of the deposited data

Results flagged for a closer look

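The sorting difference, CSC minus parent, differed between Star and Stylo for 15 of the 17 Rab probes at an adjusted p under 0.05 in limma's interaction test, where 65.2% of all tested probes passed that limit. The log2 differences were 1.88 and 2.52 for RAB9A, 1.14, 1.35 and 1.31 for RAB1A, 0.96 and 1.21 for RAB5A, and 0.92 and 0.97 for RAB10. RAB8A gave 0.91, RAB11A probe 1 gave 0.62 and RAB2A gave 0.48. Negative values were found for RAB13, at -1.04, and for RAB7A, at -0.37 and -0.72. With normexp the median of the Rab probes lay 0.48 below that of all tested probes, with 3 of 17 above it, against 0.77 above with 14 of 17. The Stylo parent arrays, dimmer than the others, enter each of these values, and their part was not tested.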

How the results depend on the processing

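Across the member and context genes, 2202 values were counted as unchanged under an alternative, 79 lost a call, 84 gained one and 68 changed sign. The 2202 include 55 that changed sign with no adjusted p under 0.05 on either side, which are read as no direction. The spike-in factor moved the median of all probes by over 1 in both sorting comparisons and in Star parent against Stylo parent; it rests on 7 probes, and the cause was not tested. The deposited matrix, the unadjusted p and the fit without a filter on dim probes changed no call of a named gene.

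Under spike-in scaling the sign turned in Star CSC against Star parent for RAB1A probes 1 to 3 (1.31, 1.49 and 1.35), RAB5A probe 1 (1.60), RAB5C (1.55), RAB7A probes 1 and 2 (1.39 and 1.04), RAB8A (1.58), RAB9A probe 1 (1.58), RAB10 probes 1 and 2 (1.47 and 1.41), RAB11A probes 1 and 2 (1.65 and 1.55), RAB13 (1.45), RAB22A (1.48), RAB4B (1.63), GDI2 (1.29), RABAC1 (1.19), NRAS (1.52) and IGF2R (0.76). For Stylo CSC against Stylo parent it turned for RAB1A probes 1 to 3 (0.60, 0.57 and 0.48), RAB2A (1.71), RAB5A probes 1 and 2 (1.07 and 1.19), RAB5C (1.67), RAB8A (1.11), RAB9A probes 1 and 2 (0.13 and 0.048), RAB10 probes 1 and 2 (0.98 and 0.87), RAB11A probes 1 and 2 (1.46 and 1.59), RAB22A (1.25), RAB4B (1.68), RABAC1 (1.25) and PIGR (0.42). It turned in Star parent against Stylo parent for RAB1A probes 1 to 3 (0.085, 0.020 and 0.29), RAB2A (0.41), RAB8A (0.32) and RAB11A probe 1 (0.032), and in Star CSC against Stylo CSC for RAB7A probe 2 (0.17), RAB10 probe 2 (0.16) and RAB11A probe 1 (0.22). Under normexp it turned in Star parent against Stylo parent for RAB1A probes 1 to 3 (0.54, 0.31 and 0.41), RAB2A (0.71), RAB11A probe 1 (0.49), RAB27A (1.104) and RABAC1 (0.52). Normexp also turned it in Stylo CSC against Stylo parent for RAB2A (0.66), RAB10 probe 1 (0.024), RAB11A probes 1 and 2 (0.80 and 0.73) and RABAC1 (0.70), and in the interaction for RAB1A probe 1 (-0.20), RAB2A (-0.49), RAB10 probe 1 (-0.43) and RAB11A probe 1 (-0.61). Median scaling turned RAB2A (0.053) in Stylo CSC against Stylo parent, and quantile normalization RABAC1 (0.093) in Star parent against Stylo parent. Read from its other probe, RAB9A was 0.47 in Star CSC against Star parent and 0.24 in Star CSC against Stylo CSC, and RAB7A was -0.44 in the latter. The cause of these turns was not tested.

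In Star parent against Stylo parent 4 Rab genes were called, all lower, 2 under quantile normalization, loess or normexp and 9 with no fold limit. Median scaling gave 2 higher and 2 lower, the percentile of detected probes 1 and 2, and spike-in scaling 3 and 1. There were 15167 probes called, 26734 without the filter. For Stylo CSC against Stylo parent 4 Rab genes, all lower, became 2 under quantile normalization or normexp (with normexp 1 higher and 1 lower) and 8 with no fold limit. Spike-in scaling gave 6 higher and 0 lower, and median scaling and the percentile of detected probes 1 and 2, and 14483 probes became 28650 without the filter. The 0 Rab genes of limma in Star CSC against Star parent, with 4 Rab probes at an unadjusted p under 0.05, became 10 under spike-in scaling. The 2608 probes became 21746 under spike-in scaling, 1142 under normexp, 1339 among probes well above background on all 8 arrays and 7922 with no fold limit. In Star CSC against Stylo CSC 7897 probes became 4045 under normexp, 4557 well above background on all 8 arrays and 15288 with no fold limit, and 0 Rab genes became 4. In the interaction 13987 probes became 8233 under spike-in scaling and 21988 without the filter, and the 3 Rab genes 0 under spike-in scaling and 9 with no fold limit.

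The split of calls, 6600 higher and 8567 lower in Star parent against Stylo parent, was 8406 and 6786 under quantile normalization, 8639 and 6546 under median scaling, 8216 and 6906 with the percentile of detected probes, 11827 and 3664 with spike-ins and 4025 and 12009 with normexp. Loess gave 7779 and 7129. The same counts for Stylo CSC against Stylo parent, 5879 and 8604 became 7420 and 6334, 8156 and 6094, 6908 and 7387, 17985 and 290, and 4026 and 11655 in the same order, with 7032 and 6534 under loess. For Star CSC against Star parent, 863 and 1745 became 1037 and 1186 under quantile normalization, 1608 and 1130 under median scaling, 1142 and 1265 under loess and 21576 and 170 with spike-ins. In Star CSC against Stylo CSC, 3376 and 4521 became 3689 and 3355 under quantile normalization, 4486 and 3500 under median scaling, 4089 and 3783 with the percentile of detected probes and 5722 and 1782 with spike-ins. In the interaction, 7554 and 6433 became 6316 and 7227 under quantile normalization, 6429 and 7401 under median scaling, 6506 and 7272 with the percentile of detected probes, 6465 and 6990 under loess, 2731 and 5502 with spike-ins and 9699 and 4138 with normexp.

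Leaving out 1 array, with the lone array of its group assumed to vary like the other groups, gave 14738 to 15234 probes and 3 to 4 Rab genes in Star parent against Stylo parent, 13834 to 14573 and 4 in Stylo CSC against Stylo parent, 2179 to 2992 and 0 in Star CSC against Star parent, 7078 to 8046 and 0 in Star CSC against Stylo CSC, and 13085 to 13845 and 2 to 5 in the interaction. With the replicate block the counts were 15147, 14458, 2525, 7867 and 13941 probes, and the block changed no call of a named gene. The fit on only the arrays compared has no value for the interaction, which uses all arrays.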
